A study of Mus musculus with 9 samples.

Results

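Weakly open gene-end peaks were the 1777 ATAC-seq peaks whose centre lay within 1 kb of an end of exactly 1 protein-coding gene and whose mean over the 3 control libraries was under 150 normalized counts. They made up 2.34% of the 75936 peaks of the table and 17.0% of the 10436 peaks at a single gene end. The other 8659 single-end peaks, at 150 or more, are called strong here. A normalized count is the number of reads in a peak divided by a size factor of the library, as the authors deposited it. ATAC-seq marks open DNA by the sites where a transposase inserts sequencing adapters. The cells were D2A1-d, a mouse breast carcinoma line kept in culture and transduced with 1 of 3 hairpins: a non-targeting control (NTC, genotype WT, n = 3), shMed1 #2 or shMed1 #4 (both labelled Med1 Knockdown, n = 3 each). All 9 libraries are bulk samples labelled untreated. The labels call them biological replicates without describing the cultures, so p-values measure the spread between these samples. The labels name no clone, and neither Med1 RNA nor MED1 protein was measured in these data, so the depth of the knockdown is not known here.

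Promoters of transcribed genes usually hold an open, nucleosome-poor stretch just before the start site. Mediator, the coactivator complex of which MED1 is a subunit, bridges transcription factors at enhancers and promoters to RNA polymerase II. Genes that a cell type does not use commonly lack open chromatin at the start, and the far end of a gene, where transcripts finish, is seldom strongly open. Accessibility is not expression, and an assigned gene is the gene at whose end the peak lies, not a tested target.

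The peaks were chosen by their NTC level, which is given only as a description. NTC means ran from 6.85 to 149.8 normalized counts with a median of 79.2, against a median of 1265 for strong single-end peaks and 208 for all peaks. The limit cut through a continuous range. Just inside it lay peaks at Pcdhb16 (149.8 ± 6.24, SD, n = 3), Ak3 (149.7 ± 7.19) and Elof1 (149.6 ± 8.72), and just outside it peaks at Cyp2s1 (150.1 ± 4.71), Ssr3 (150.2 ± 18.5) and Zfp661 (150.2 ± 5.20). The weak peaks belonged to 1611 genes, and 155 of these had 2 or more, up to 4. Members of 1 gene share a locus and are not independent.

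Reads in peaks ranged from 34.8 to 53.7 M per library, and the median weak gene-end peak held 61 to 91 reads. Its spread between replicates, as a median coefficient of variation, was 13.0% in NTC, 14.5% in #2 and 15.2% in #4. The spread implied by counting error had medians of 10.9%, 11.3% and 12.1%. The median of SDs from 3 libraries falls under the true spread, so the observed and implied values are not strictly alike. For strong single-end peaks the spread was 3.98%, 5.43% and 4.05%. Over the weak peaks, log2 values correlated at r = 0.804 to 0.867 between libraries of the same group and at 0.698 to 0.798 between groups, given as a description across peaks. The weak peaks took 0.359% to 0.361% of the reads in NTC, 0.312% to 0.343% in #2 and 0.338% to 0.350% in #4, with shMed1 #2 replicate 1 lowest. The labelled cell type was checked against marker genes at either gene end. Of 8 epithelial genes only Krt18 had a gene-end peak, at 209 in NTC, and none was listed at Epcam, Cdh1, Krt8, Cldn4, Cldn7, Esrp1 or Grhl2. Of 10 mesenchymal genes 8 had one, 7 of them at 150 or more. Of 10 blood markers 5 had one (2 of them at 150 or more), of 10 endothelial, fat and muscle markers 2 (both weak), and of 10 neural markers 5 (Tubb3 at 150 or more).

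The sequences below are the 250 bases before the transcription start at 8 weak peaks that differed between the hairpins, 4 higher and 4 lower with #4. They are those ranked first by the size of the difference among peaks with a listed start within 500 bases of the peak centre. They are shown because the composition of these promoters is one of the features that the results turn on. Each reads 5′ to 3′ on the strand of its gene and comes from RefSeq (GRCm38.p6, the same assembly as mm10). Capitals mark matches, on either strand, to 7 motifs. These are the TATA box (TATAAA), the CCAAT box (CCAAT), the GC box (GGGCGG), the ETS core (CCGGAA), the NRF1 site, the AP-1 site (TGANTCA) and the cyclic-AMP response element (CRE, TGACGTCA). GC boxes can overlap one another.
Pwwp3b, higher with #4, chrX:139209794-139210043, plus strand: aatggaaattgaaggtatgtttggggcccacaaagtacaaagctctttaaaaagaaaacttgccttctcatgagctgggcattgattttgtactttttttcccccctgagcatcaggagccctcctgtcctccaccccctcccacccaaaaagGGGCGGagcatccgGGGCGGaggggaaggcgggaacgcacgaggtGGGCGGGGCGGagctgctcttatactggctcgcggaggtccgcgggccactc
Grb14, higher with #4, chr2:65022767-65023016, minus strand: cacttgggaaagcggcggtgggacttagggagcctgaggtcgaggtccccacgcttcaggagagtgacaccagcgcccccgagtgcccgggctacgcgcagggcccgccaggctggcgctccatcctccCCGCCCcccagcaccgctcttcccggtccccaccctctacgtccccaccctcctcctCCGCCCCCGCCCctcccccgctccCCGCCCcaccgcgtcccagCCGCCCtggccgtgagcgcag
Cep126, higher with #4, chr9:8134447-8134696, minus strand: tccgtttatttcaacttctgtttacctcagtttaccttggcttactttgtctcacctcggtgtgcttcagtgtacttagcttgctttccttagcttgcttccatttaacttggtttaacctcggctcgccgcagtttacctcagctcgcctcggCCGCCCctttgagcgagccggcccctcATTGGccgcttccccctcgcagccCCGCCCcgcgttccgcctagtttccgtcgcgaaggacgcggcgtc
Kif5c, higher with #4, chr2:49619036-49619285, plus strand: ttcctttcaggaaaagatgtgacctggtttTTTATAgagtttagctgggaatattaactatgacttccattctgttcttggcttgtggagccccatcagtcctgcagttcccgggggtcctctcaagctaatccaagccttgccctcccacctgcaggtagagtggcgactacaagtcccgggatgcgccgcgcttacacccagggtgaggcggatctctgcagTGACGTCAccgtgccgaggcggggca
Trim72, lower with #4, chr7:128004128-128004377, plus strand: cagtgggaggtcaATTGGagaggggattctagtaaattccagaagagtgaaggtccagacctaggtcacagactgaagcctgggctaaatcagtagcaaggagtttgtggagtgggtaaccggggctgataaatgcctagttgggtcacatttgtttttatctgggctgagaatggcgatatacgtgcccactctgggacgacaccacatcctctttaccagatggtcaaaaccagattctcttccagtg
Mcpt8, lower with #4, chr14:56085198-56085447, minus strand: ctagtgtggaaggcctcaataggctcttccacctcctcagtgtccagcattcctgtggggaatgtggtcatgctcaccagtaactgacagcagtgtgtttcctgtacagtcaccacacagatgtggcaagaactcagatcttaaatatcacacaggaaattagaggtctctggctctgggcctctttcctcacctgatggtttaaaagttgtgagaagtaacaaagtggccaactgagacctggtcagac
Spaca7, lower with #4, chr8:12572786-12573035, plus strand: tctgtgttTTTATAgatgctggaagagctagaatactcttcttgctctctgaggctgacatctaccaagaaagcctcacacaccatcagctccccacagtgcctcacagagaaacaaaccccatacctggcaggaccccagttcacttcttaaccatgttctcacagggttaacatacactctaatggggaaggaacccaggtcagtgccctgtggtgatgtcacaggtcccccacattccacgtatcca
Sh2d1b1, lower with #4, chr1:170277068-170277317, plus strand: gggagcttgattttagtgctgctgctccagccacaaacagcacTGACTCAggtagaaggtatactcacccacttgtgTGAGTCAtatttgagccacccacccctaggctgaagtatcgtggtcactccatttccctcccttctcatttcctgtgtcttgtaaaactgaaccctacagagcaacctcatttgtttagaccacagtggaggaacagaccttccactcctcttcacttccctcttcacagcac

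The 4 windows of peaks higher with #4 held 11 to 24 CpG dinucleotides each, at 55.2% to 75.2% GC. The GC box, the binding site of SP1-family factors, was found 4 times at Pwwp3b, 5 times at Grb14 and 2 times at Cep126. Cep126 also had a CCAAT box, and Kif5c had a TATA box and a CRE, but no GC box. The 4 windows of peaks lower with #4 held 0 to 4 CpG at 48.4% to 49.6% GC and no GC box. Trim72 had a CCAAT box, Spaca7 a TATA box, Sh2d1b1 had 2 AP-1 matches, and no match was present at Mcpt8. A match is a description of letters and not evidence of binding.

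Most weak gene-end peaks lay at the finish of a gene rather than at its start. The strand was known from the RefSeq promoter table for 1372 of the 1777. Of these, 547 lay at the start and 825 (60.1%) at the finish, while of 6917 strong single-end peaks with known strand 748 (10.8%) lay at the finish. The share at the finish fell steadily with level: it was 70.9% at an NTC mean of 0 to 50, 59.9% at 50 to 100, 55.2% at 100 to 150, 48.7% at 150 to 300, 24.4% at 300 to 600, 6.50% at 600 to 1200 and 2.51% above. The limit of 150 thus fell within a gradient. Levels overlapped closely between the classes, with an NTC median of 84.1 at starts and 74.6 at finishes.

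**Figure D1:**
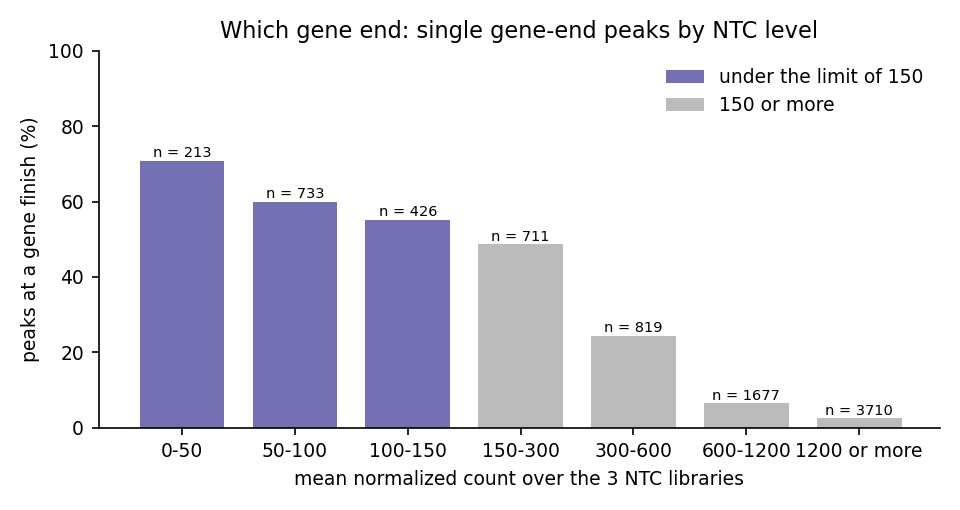
Share of single gene-end peaks with known strand that lie at the finish of the gene (vertical axis, %), by mean normalized count over the 3 NTC libraries (horizontal axis); n is the number of peaks in a bin, and purple bars are the weak peaks. The share falls from 70.9% in the lowest bin to 2.51% in the highest.

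Weak peaks also sat less tightly on the gene end. The median distance from peak centre to gene end was 332 bases for weak and 100 for strong peaks at starts. At finishes it was 566 for weak and 492.5 for strong peaks, a smaller gap. Within 250 bases lay 43.9% of weak and 72.9% of strong start peaks, and 16.1% of weak and 21.1% of strong finish peaks. Of the weak finish peaks, 17 (2.06%) had any RefSeq start listed within 1 kb. The rule itself bars peaks near an end of another protein-coding gene. A strong peak seldom lay beside a weak one. One was within 1 kb of 4.05% and within 5 kb of 18.7%, and the median distance to the nearest strong peak was 10.3 kb. The 2 ends of a gene differed in openness. Among 744 genes over 2 kb with a weak finish peak, the start of the same gene had a strong peak in 493 (66.3%), only a weak one in 30 and none in 221 (29.7%). Among 469 such genes with a weak start peak, the finish had no peak in 399 (85.1%). Genes with strong peaks were similar. Of 683 with a strong finish peak, the start had a strong peak in 64.9% and none in 32.2%. Of 5770 with a strong start peak, the finish had no peak in 82.2%. Of 502 genes with a weak start peak, 110 had another listed start over 1 kb away, and 34 of these had a strong peak there.

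The promoters behind weak start peaks were poorer in CpG and GC boxes than those behind strong ones. In 311 promoters with a start within 500 bases of a weak peak, median GC content was 54.4% and the median CpG observed/expected ratio 0.369. This ratio compares the CpG present with the number that the C and G content would give. For 5391 promoters of strong single-end peaks the medians were 60.8% and 0.759, for 21045 protein-coding starts 55.6% and 0.537, and for 10216 starts with no peak within 1 kb 49.2% and 0.250. CpG-rich promoters (ratio of at least 0.6 and GC of at least 50%) made up 24.4% of the weak, 70.6% of the strong, 41.9% of all and 15.6% of those without a peak. The weak set thus lay between promoters without a peak and promoters at large.

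Letter matches followed the same order for the GC box and the ETS core. The GC box was present in 35% of weak, 66.2% of strong and 43.1% of all promoters, and in 23.7% of starts without a peak. The ETS core, recognised by ETS-family factors, was present in 9.0%, 23.2%, 15.1% and 6.22%. The NRF1 site was present in 0.965%, 2.02%, 1.08% and 0.294%, where the weak share is only 3 promoters. AP-1, the site of FOS and JUN dimers, went the other way. It was matched in 13.2% of weak, 4.21% of strong and 6.17% of all promoters, and in 7.86% of starts without a peak. The TATA box was matched in 10.6% of weak, 5.75% of strong and 11.7% of all promoters. The CCAAT box was matched in 31.5%, 38.3% and 35.6%, the CRE in 2.57%, 3.21% and 1.94%, and the E-box (CANNTG) in 66.6%, 54.2% and 62.8%. These shares were not tested.

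**Figure D2:**
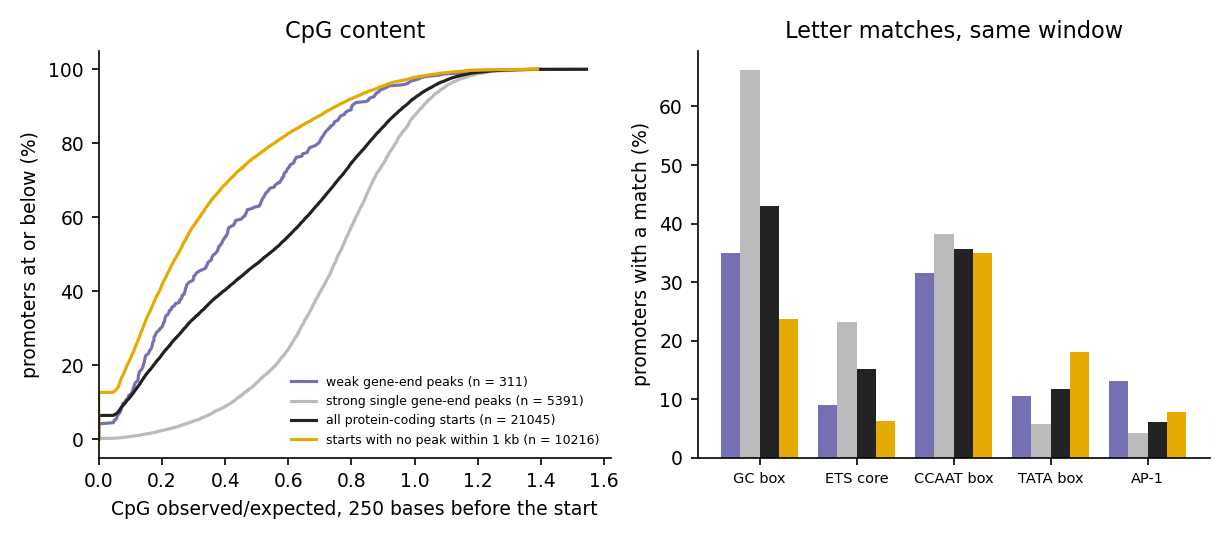
Composition of the 250 bases before the start. Left: cumulative share of promoters (%) against the CpG observed/expected ratio, for weak peaks, strong single-end peaks, all protein-coding starts and starts with no peak. Right: share of promoters (%) with a letter match, in the same colours, where the weak set is highest of the 4 for AP-1 (13.2%) and lies under all starts for the GC box (35% against 43.1%).

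The gene lists with the highest shares of weak peaks were mostly some tissue-restricted families and markers of other cell types. Over 28 lists, described here by counts only, 307 weak peaks belonged to at least 1. Of 25 single-end peaks of olfactory and vomeronasal receptor genes, the chemoreceptors of the nose, 18 (72.0%) were weak. So were 24 of 35 at cadherins and protocadherins (68.6%), 8 of 13 at markers of endothelium, fat and muscle (61.5%) and 6 of 10 at neural and glial markers (60%). Ion channels and neurotransmitter receptors had 33 of 58 (56.9%), and keratins and keratin-associated proteins 9 of 16 (56.2%). These shares stand beside 17.0% over all single-end peaks, and they describe the NTC levels that chose the peaks.

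Other lists, some of them also tissue-restricted families, lay nearer that share or under it. Blood lineage markers had 4 of 8 weak peaks (50%), germline genes 3 of 6 (50%) and luminal and basal mammary genes 5 of 13 (38.5%). Epithelial genes had 3 of 10 (30%), orphan and adhesion G protein-coupled receptors 12 of 41 (29.3%) and secreted growth factors 10 of 36 (27.8%). Serpins and secreted proteases had 20 of 58 weak peaks (34.5%), cytokines, chemokines and their receptors 23 of 72 (31.9%), cytochrome P450 and conjugating enzymes 14 of 52 (26.9%), extracellular matrix genes 14 of 55 (25.5%), developmental transcription factors 16 of 69 (23.2%), interferon response genes 13 of 60 (21.7%) and solute carriers 38 of 197 (19.3%). Lists of widely used genes had few weak peaks: 8 of 70 cell cycle peaks (11.4%), 3 of 45 mitochondrial ribosomal (6.67%), 19 of 322 zinc finger (5.90%), 3 of 75 ribosomal (4.00%) and 0 of 29 Mediator subunit peaks. The 3 mitochondrial ribosomal peaks and 2 of the 3 ribosomal ones lay at finishes, and the strand of the other was not known. Only 1 weak peak, at Postn, belonged to a list of 31 dormancy-linked genes.

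The 2 hairpins against the same gene were compared first, because this difference holds no NTC value, while NTC chose the peaks. The NTC libraries enter only the spread between replicates that limma shares over the 3 groups: without NTC replicate 1, 2 or 3 the 135 higher and 70 lower calls below became 127 and 67, 125 and 68, and 126 and 67. Of 1775 weak peaks tested, 135 (7.61%) were higher with #4 than with #2 and 70 (3.94%) lower. Among all 75930 peaks tested 8.48% were higher and 13% lower, so the share of higher calls was near the background and that of lower calls under it. Calls are at a limma adjusted p under 0.05. Weak peaks inside gene bodies, with a similar error, were higher in 7.35% and lower in 6.23%, and weak intergenic peaks in 6.81% and 8.07%. The median standard error of a log2 difference was 0.20 for the weak gene-end peaks and 0.12 for all peaks, so small differences were not detectable at this depth. The median difference over the weak gene-end peaks was 0.04 on the log2 scale, against 0.01 over all peaks. This order turned with quantile scaling, at 0.00015 against 0.02. Among called peaks the median size was 0.68, and 39 reached a log2 difference of 1. The lower calls became 44 without shMed1 #2 replicate 2 and 46 without shMed1 #2 replicate 3. The 3 libraries of #4 lay wholly above those of #2 at 254 peaks (14.3%) and wholly below at 120 (6.76%), against 15.6% and 18% of all peaks.

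The largest differences upward with #4 were at Meis2, Pwwp3b, Jph1 and Grb14. At Meis2, a TALE homeobox transcription factor, the peak at the gene start (chromosome 2, 116066904 to 116067405) held 136, 111 and 107 normalized counts with #4 and 32.5, 27.6 and 36.9 with #2, while NTC was at 86.8, 61.8 and 59.6. No value of #4 overlapped #2 or NTC, and NTC lay between the hairpins. The log2 difference of #4 from #2 was 1.84 ± 0.21 (SE; limma adjusted p = 3.30e-09), the largest among the peaks named by the rule. At Jph1, a junctophilin that couples membranes in muscle (chromosome 1, 17097608 to 17098109), #4 was at 173, 171 and 208, #2 at 61.5, 50.7 and 69.0 and NTC at 129, 126 and 103. The 3 groups did not overlap, with NTC again between them (1.6 ± 0.16, limma adjusted p = 7.76e-11).

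The Pwwp3b peak at the start of a gene for a PWWP-domain protein (chromosome X, 139209813 to 139210314) held 50.2, 98.8 and 66.8 with #4 against 24.6, 17.3 and 23.8 with #2. NTC, at 33.1, 73.7 and 47.4, overlapped #4 and lay above #2 (1.63 ± 0.29, limma adjusted p = 2.39e-05). At Grb14, an adaptor that restrains the insulin receptor (chromosome 2, 65022741 to 65023242), #4 was at 126, 92.6 and 81.2 and #2 at 27.2, 44.9 and 26.3. NTC was at 61.8, 69.1 and 72.7, under every #4 value and above every #2 value (1.6 ± 0.23, limma adjusted p = 4.20e-07). At Kif5c, a kinesin motor of neurons (chromosome 2, 49619047 to 49619548), #4 was at 116, 173 and 120, #2 at 46.6, 46.1 and 56.7 and NTC at 89.5, 100.5 and 104. Here too the order was #2, NTC, #4 without overlap (1.42 ± 0.18, limma adjusted p = 3.69e-08). The GC boxes of Pwwp3b and Grb14, and the CRE of Kif5c, are those printed above.

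The rule drew on 127 peaks that met its conditions, and 4 more of those it named are given. Cep126, a centrosomal protein, went from 32.1 ± 7.29 with #2 to 90.7 ± 14.8 with #4 (SD, n = 3), a log2 difference of 1.49. Rasgef1b, an exchange factor for small GTPases, had the only peak of the 9 given that is known to lie at a finish, at 15.0 ± 2.46 with #2 and 45.9 ± 1.96 with #4 (1.56). Fras1, a basement membrane protein, rose from 68.4 ± 13.9 to 184 ± 9.12 (1.43). Syn1, a synaptic vesicle protein, went from 37.6 ± 15.8 to 92.4 ± 8.72 (1.35). The limma adjusted p of these ran from 2.17e-09 at Fras1 to 0.000355 at Rasgef1b. In all 9 the NTC mean lay between those of the hairpins. The peaks were picked by the size of the difference, and NTC values chose the weak peaks, so this order is a description.

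The largest differences downward with #4 were at Tmem274, Colca2 and Rims2, and the smallest p-value among the 10 peaks named was at Ccl8. At Ccl8, a chemokine that attracts monocytes (chromosome 11, 82115672 to 82116173), #2 was at 227, 235 and 234 normalized counts, #4 at 126, 124 and 149 and NTC at 135, 112 and 115. The #2 libraries stood above the others and those of #4 overlapped NTC (-0.80 ± 0.13, limma adjusted p = 6.87e-06). At Tmem274, a transmembrane protein (chromosome 4, 149477830 to 149478331), #2 was at 147, 138 and 138, #4 at 86.0, 43.8 and 73.4 and NTC at 57.3, 67.3 and 53.5. Again only #2 stood apart (-1.10 ± 0.20, limma adjusted p = 2.77e-05). At Serpinb9e, a clade B serpin (chromosome 13, 33250288 to 33250789), #2 was at 111, 123 and 117, #4 at 55.3, 55.1 and 72.3 and NTC at 71.6, 74.7 and 67.6. The #2 libraries lay above both other groups, which overlapped (-0.94 ± 0.18, limma adjusted p = 0.000108).

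Of the 52 peaks that met the conditions for lower values, 7 more were named. Colca2 went from 83.0 ± 13.1 with #2 to 38.8 ± 7.53 with #4 (SD, n = 3; log2 difference -1.08). Ankk1, a kinase with ankyrin repeats, went from 105 ± 11.4 to 57.0 ± 12.9 (-0.89), and Rsl1d1, a nucleolar protein, from 173 ± 11.7 to 99.0 ± 6.85 (-0.80). The limma adjusted p of these was 0.000486, 0.000665 and 4.27e-05. Rims2 of the presynaptic active zone (-1.04), Trim72 of muscle membrane repair (-0.85), the cation channel Trpc1 (-0.81) and the atrial myosin light chain Myl7 (-0.78) rested on single libraries. Trim72, whose promoter is printed above, held 112, 152 and 162 with #2 and 96.3, 105 and 45.6 with #4, without overlap. The call at Rims2 was lost without #2 replicate 3 or #4 replicate 3 (limma adjusted p = 0.065 and 0.064), and that at Trim72 without #4 replicate 3 (0.097). Trpc1 was lost without #2 replicate 1 or 3 or #4 replicate 2 (0.054 to 0.096), and Myl7 without #2 replicate 2 or 3 or #4 replicate 1 or 3 (0.070 to 0.175).

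**Figure D3:**
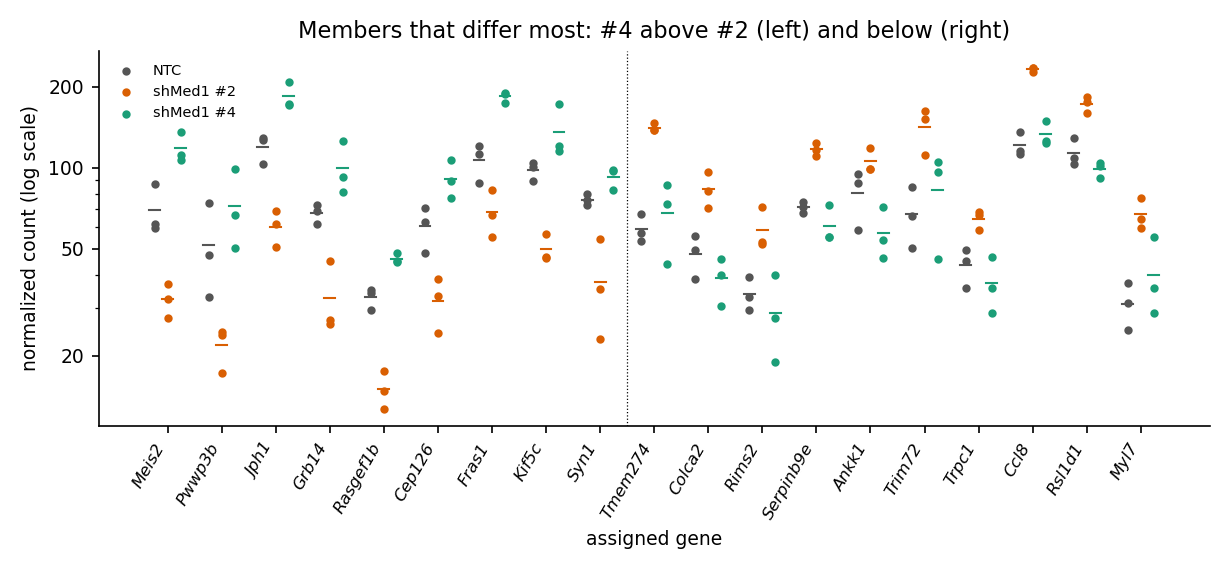
Normalized counts (log axis) in each of the 9 libraries at 9 peaks higher and 10 lower in shMed1 #4 relative to shMed1 #2, from those the naming rule ranked first; points are libraries and short lines group means (n = 3). On the left NTC means (grey) lie between #2 (orange) and #4 (green); on the right #2 stands above.

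The 3 further peaks whose sequences are printed lay lower in the ranking. At Mcpt8, a mast cell protease of basophils (chromosome 14, 56085114 to 56085615), #2 was at 165, 177 and 160 and #4 at 112, 108 and 81.2 (-0.75 ± 0.15, limma adjusted p = 0.000174). At Sh2d1b1, an adaptor of natural killer cells (chromosome 1, 170276922 to 170277423), #2 was at 184, 203 and 229 and #4 at 132, 114 and 132 (-0.70 ± 0.14, limma adjusted p = 0.000127). At Spaca7, a sperm acrosome protein (chromosome 8, 12572515 to 12573016), #2 was at 147, 144 and 177 and #4 at 89.1, 86.3 and 107 (-0.72 ± 0.16, limma adjusted p = 0.000423). At each of the 3 the hairpins did not overlap.

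Calls were counted separately for the 2 gene ends, beside 8.48% higher and 13% lower over all peaks tested. Of 545 weak start peaks 67 (12.3%) were higher with #4 and 24 (4.40%) lower, and of 825 weak finish peaks 38 (4.61%) and 32 (3.88%). Of 405 with unknown strand 30 and 14 were called. Differences of at least 1 numbered 22 at starts and 4 at finishes. Among strong peaks 13.2% of starts and 8.02% of finishes were higher, the same order as among weak peaks. The lower calls did not share an order. They were 2.32% of strong starts and 15.9% of strong finishes, against 4.40% and 3.88% of the weak. Among weak peaks the order of the higher calls held at like NTC levels. At NTC means of 0 to 50, 5 of 60 weak starts and 6 of 151 weak finishes were higher with #4. At 50 to 100, 32 of 294 and 16 of 439 were, and at 100 to 150, 30 of 191 and 16 of 235. This split was chosen after the values were seen and was not tested. The lower calls at starts became 12 without #2 replicate 2, and those at finishes 20 without #2 replicate 3.

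**Figure D4:**
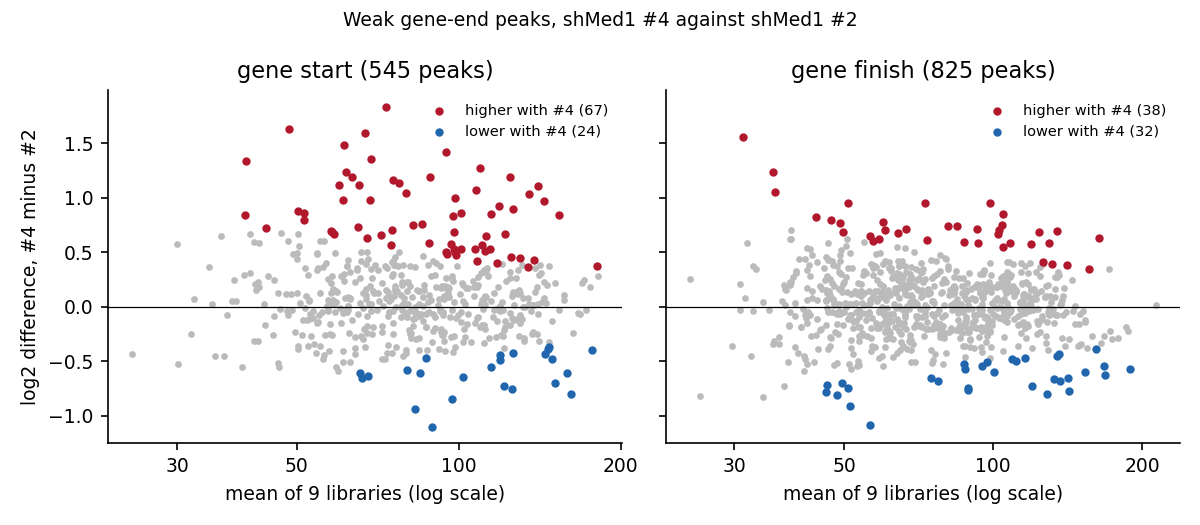
Log2 difference of #4 from #2 (vertical axis) against the mean normalized count of the 9 libraries (log axis) for weak peaks at gene starts (left) and finishes (right). Red and blue points passed as higher and lower; 67 of 545 start peaks and 38 of 825 finish peaks are red.

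Calls were also counted by promoter composition, again beside 8.48% higher and 13% lower over all peaks tested. Of 77 weak peaks with a CpG-rich promoter 19 (24.7%) were higher with #4 and 2 lower, against 29 (12.2%) and 11 of 237 weak peaks with another promoter. Their NTC medians were alike, at 86.3 and 83.3. Of 110 with a GC box match 25 (22.7%) were higher and 4 lower, and of 204 without it 23 (11.3%) and 9. GC box and CpG content overlap, so these are not separate counts. With an AP-1 match 2 of 41 were higher and 1 lower. Among strong single-end peaks the CpG-rich ones were higher in 12.7% and the others in 15.9%, the opposite order. The split was likewise chosen after the values were seen and was not tested, and the 29 higher calls became 18 without #4 replicate 2.

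By gene list, calls between the hairpins were few. Of 14 extracellular matrix peaks 4 were higher with #4 and none lower, at Col7a1 and Col9a2, both collagen chains, Emilin2, an elastic fibre protein, and Postn, the matricellular protein periostin. Values of Col9a2 were 43.0, 67.6 and 54.5 with #4 and 26.4, 38.0 and 26.3 with #2 (0.84 ± 0.29, limma adjusted p = 0.0287). Postn went from 75.1 ± 13.4 to 108 ± 15.1 (SD, n = 3), a log2 difference of 0.53 (limma adjusted p = 0.0206), which was lost without #2 replicate 2 (0.159) or #4 replicate 1 (0.116). Emilin2 (0.58) was lost without #4 replicate 1 (0.064) or 2 (0.084). The 4 became 2 without #2 replicate 2 or 3 or #4 replicate 3, and 1 without #4 replicate 1 or 2, with none lower in any of these. The 14 peaks had a median of 0.28, against 0.01 over all peaks, where 8.48% were higher and 13% lower.

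Among proteases, Adamts5, an aggrecan-cleaving enzyme, went from 44.1 ± 8.25 with #2 to 107 ± 18.5 with #4 (SD, n = 3; 1.27 ± 0.20, limma adjusted p = 2.02e-06), and Adamts1 was higher too (0.71). Serpinb9e, Serpinb9f and Prss39 were lower, so this list of 20 moved both ways. Of 23 cytokine and receptor peaks, Cxcr6, a chemokine receptor (0.83 ± 0.17, limma adjusted p = 0.000295), and a peak of Tnfrsf13c, a cytokine receptor of B cells (0.57), were higher. Ccl8, Csf2 and Cxcl3 were lower. Of 33 ion channel peaks, 1 was higher (Kcnk9, 0.49, lost without #2 replicate 1 at a limma adjusted p of 0.069) and 3 lower (Hcn2, Kcnk3 and Trpc1). Of 38 solute carrier peaks 4 were higher, among them the vesicular nucleotide transporter Slc17a9 (0.78), and 3 lower. Of 24 cadherin peaks 1 was higher, and of 18 olfactory and vomeronasal receptor peaks none passed in either direction (2 were lower with quantile scaling). These counts rested on single libraries. The ion channel calls became 0 higher without #2 replicate 1 and 0 lower without #4 replicate 2, and 1 lower without #2 replicate 1 or 3. The 4 solute carrier peaks that were higher became 2 without #2 replicate 2 or #4 replicate 2, and the 3 lower became 1 without #2 replicate 3 or #4 replicate 2 or 3. The 3 lower protease peaks became 1 without #2 replicate 2 or #4 replicate 3. Of the cytokine and receptor peaks 1 was lower without #4 replicate 1, and 1 was higher without #2 replicate 3 or any 1 of the #4 libraries. The cadherin call was lost without #2 replicate 1 or #4 replicate 1 and became 2 without #4 replicate 3, and 1 olfactory or vomeronasal receptor peak was lower without #4 replicate 2. Of 16 developmental transcription factor peaks Foxq1 was higher (0.54, limma adjusted p = 0.0488), and of 9 keratin peaks Krt27 was lower (-0.38, limma adjusted p = 0.0499). Both calls were lost with quantile scaling (0.068 and 0.056), Foxq1's also on leaving out any 1 NTC or #4 library or #2 replicate 3 (0.445), and Krt27's with equal totals and without NTC replicate 1 or 3, #2 replicate 1 (0.300) or #4 replicate 1 or 2. At these list sizes the counts lie near the background of 8.48% and 13%.

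Some calls lay at finishes of widely used genes, and others at starts or at marker genes of other cell types. At Itga5, the fibronectin receptor chain (chromosome 15, 103343703 to 103344204), the finish peak was at 70.4 ± 14.1 with #2 and 114 ± 9.69 with #4 (SD, n = 3; 0.70 ± 0.17, limma adjusted p = 0.00142). At Mrpl37, a mitochondrial ribosomal protein (chromosome 4, 107055952 to 107056453), it was at 184 ± 9.36 and 116 ± 9.97 (-0.66 ± 0.14, limma adjusted p = 0.000426). Fosl2, an AP-1 subunit, was at 76.4 ± 18.6 and 113 ± 2.00 (0.58), a call lost without #2 replicate 1 (limma adjusted p = 0.101). Of the zinc finger genes, Zfp141 (0.93, at its start) and Zfp94 (0.68, at its finish) were higher and a Zfp639 finish peak lower (-0.62). The lower calls of these genes became 4 without #2 replicate 1, 3 without #4 replicate 1 and 0 without #2 replicate 3 or #4 replicate 3. Aldh1l1, a folate enzyme and astrocyte marker, was higher at its start (0.97 ± 0.15, limma adjusted p = 2.11e-06), as was Syn1. The other 4 of the 6 neural and glial peaks did not pass. Ckm, the muscle creatine kinase, was higher (0.74), which was lost without #2 replicate 3 (limma adjusted p = 0.053). Of the 4 blood marker peaks none passed. The part of other cell types in these values was not tested.

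Against NTC, the counts are a description, since NTC values chose the peaks, and nothing is read from them. With #2, 133 weak peaks (7.49%) were called higher and 239 (13.5%) lower, where 23.6% and 19.5% of all peaks were. With #4, 104 (5.86%) were higher and 95 (5.35%) lower, beside 17.3% and 12.1%. In the mean of both hairpins, 110 (6.20%) and 174 (9.80%) were called, beside 22.1% and 17.7%. The median log2 differences were -0.08, -0.03 and -0.05. The split depended on scaling. With equal totals of the libraries it was 91 higher and 351 lower for #2, 76 and 154 for #4 and 73 and 285 for the mean, and with quantile scaling 181 and 151, 140 and 67, and 158 and 112, with medians of 0.0035, 0.02 and 0.02. Under equal totals all peaks had medians of -0.10 for #2 and -0.08 for #4. For #4 against #2 the share of higher calls was 65.9%, 69.0% with equal totals and 59.6% with quantile scaling. The lower counts fell when 1 library was left out, and so did the shares over all peaks. For #2, 239 became 157 without NTC replicate 3, while the share over all peaks went from 19.5% to 13.6%. For #4, 95 became 54, 46 and 63 without NTC replicate 2, NTC replicate 3 and #4 replicate 2. Over all peaks the share lower with #4 became 7.66%, 7.24% and 8.74%. For the mean, 174 became 105 and 81 without NTC replicates 2 and 3, beside 11.8% and 11% of all peaks.

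**Figure D5:**
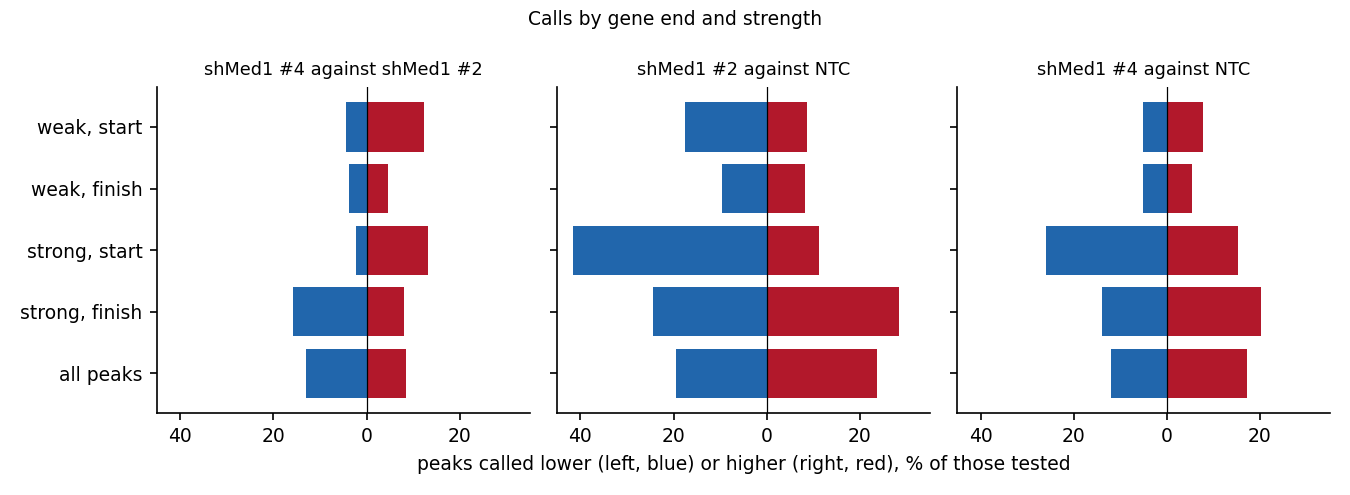
Peaks called higher (right, red) and lower (left, blue) as % of those tested, by gene end and strength, in 3 contrasts. The differences in the left panel hold no NTC value, though NTC libraries enter the spread behind its calls: 12.3% of weak start and 4.61% of weak finish peaks are higher with #4. The middle and right panels share the NTC libraries and are a description.

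The 2 comparisons with NTC share those libraries, so their values are given side by side. Of the weak peaks, 47 were called higher with both hairpins and 43 lower with both, none was higher with #2 and lower with #4, and 14 were lower with #2 and higher with #4. Of the 135 peaks higher with #4 than with #2, 83 were also called lower with #2 against NTC and 36 higher with #4 against NTC. Of the 70 lower with #4, 39 were called higher with #2 against NTC and 5 lower with #4. Each of these pairs of calls shares the libraries of a hairpin, so part of the overlap is built in. Shares of such pairs over all peaks are not given here, and no conclusion is drawn from these counts.

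Among peaks above NTC in all 6 hairpin libraries, Zxdb, an X-linked zinc finger gene (chromosome X, 94725207 to 94725708), had the largest difference. It was at 5.37, 11.1 and 10.1 in NTC, 63.3, 15.0 and 59.9 with #2 and 31.8, 55.1 and 38.9 with #4. Its low NTC values rest on few reads. Another Zxdb peak (94723856 to 94724357) and a Gm13290 peak were the 2 weak peaks too low to be tested, with NTC means of 6.85 and 8.17. At Ermard (chromosome 17, 15090267 to 15090768) NTC was at 134, 111 and 104, #2 at 208, 265 and 296 and #4 at 339, 399 and 234. At Ifitm6, an interferon-inducible transmembrane gene, NTC was at 48.0 ± 15.8, #2 at 80.0 ± 12 and #4 at 98.1 ± 9.29 (SD, n = 3). Krt13, a keratin of stratified epithelium, was at 121 ± 16.9, 190 ± 26.1 and 215 ± 6.88, and Orm3, an acute-phase glycoprotein, at 126 ± 12.2, 234 ± 27.7 and 201 ± 29.1. Zfp639, Gm11127 and Gm5936 were named as well, at NTC means of 96.7, 25.7 and 42.7 and #2 means of 210, 50.6 and 98.3. Gm11127 lost its call without NTC replicate 3.

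Among peaks below NTC in all 6 hairpin libraries, the finish of Hmgcs1, an enzyme of cholesterol synthesis (chromosome 13, 119707907 to 119708408), was at 60.9, 53.5 and 64.6 in NTC, 23.7, 23.0 and 27.1 with #2 and 35.8, 21.3 and 30 with #4. Every hairpin library was under every NTC library, and the hairpins overlapped. Mycn, a MYC-family transcription factor, had a start peak 5 bases from the annotated end, at 49.2, 59.0 and 62.6 in NTC, 21.1, 33.4 and 27.1 with #2 and 44, 43.8 and 35.6 with #4. Foxq1, a forkhead factor, was at 107 ± 11 in NTC, 55.7 ± 17.7 with #2 and 78.6 ± 5.27 with #4 (SD, n = 3). Pla2g7, a platelet-activating factor acetylhydrolase, was at 123 ± 6.30, 77.4 ± 11 and 74.5 ± 17.6, and Gnrh1, a hypothalamic hormone gene, at 71.8 ± 18, 42.3 ± 9.94 and 40.8 ± 13.3. Krt28, Mtcp1 and Vmn2r111 had NTC means of 89.1, 78.3 and 43.6 and #2 means of 47.2, 54.5 and 28.2. The calls at Mycn and Gnrh1 were lost without NTC replicate 3, Mycn's also without NTC replicate 2, and that at Vmn2r111 without NTC replicate 1 or 3, #2 replicate 1 or #4 replicate 3.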

How the data were processed

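Open DNA of 9 D2A1-d libraries was tagmented for 1 h at 37 °C, per the labels' protocols. Per the submitters' processing notes, the tools were Trim Galore, BWA, MACS2 and featureCounts (Subread) and the build mm10 (GRCm38); versions, duplicate removal and read shifting are not stated there. Each deposited value is a signal: a peak's read count that the authors divided by a DESeq2 size factor, per the table's name. In each library all values were multiples of 1 unit, to a tolerance of 0.01, which gave the reads per peak. Coordinates are as deposited.

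Gene ends came from RefSeq GRCm38.p6, and strand, starts and promoter letters from a RefSeq promoter table that matched 1372 of the 1777 peaks. Log2(value + 1) of peaks averaging 10 or more over 9 libraries (75930 tested, 6 removed) was fitted in limma 3.58.1 (R 4.3.3) with trend and no further scaling on all 3 groups, two-sided, with Benjamini-Hochberg adjustment over all peaks at 0.05. Log2 differences carry limma's standard errors, and means SDs. The fit was tested on simulated data. No count model was used, since the unit is a normalized signal. Alternatives covered the pseudocount, filter, scaling, voom weights, a replicate block, each library left out, and other limits of distance and level.

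The peaks, lists and rules were chosen with earlier results of these data known. Named between hairpins were the first 10 each way by log2 difference among called peaks with a mean of at least 30 and no overlap of the libraries, against NTC the first 8 each way with all hairpin libraries on 1 side, and some of up to 2 per list with the highest mean and 2 with the smallest p. Mcpt8, Spaca7 and Sh2d1b1 rank further down. Col7a1, Col9a2, Adamts1, Csf2, Cxcl3, Hcn2, Kcnk3, Tnfrsf13c, Prss39, Serpinb9f and the peaks called in opposite directions were named after their values were seen. Results for a few genes that these rules reach are left out here.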

Additional observations from a re-analysis of the deposited data

Results flagged for a closer look

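The effects of the 2 hairpins differed at 135 weak gene-end peaks that were higher and 70 that were lower with #4 than with #2 (limma, adjusted p under 0.05), beside a background of 8.48% and 13% of all peaks. At 14 peaks the hairpins were called in opposite directions from the same NTC libraries, lower with #2 and higher with #4. Since NTC chose the peaks and serves both comparisons, and the opposite calls fix the sign of the direct log2 difference of #4 from #2, that difference is a description, given here for 12 of them. It was 1.84 at Meis2, 1.6 at Jph1 and 1.43 at Fras1, which are described above. It was 1.28 at Ehhadh, a peroxisomal fatty acid oxidation enzyme, 1.24 at Tex26 and 1.19 at each of Map3k9, a mixed-lineage kinase, Ptger2, a prostaglandin E2 receptor, and Arsj, an arylsulfatase. It was 1.04 at the mismatch repair gene Mlh3, 1.03 at the dynein light chain gene Dynlt3, 0.85 at Galnt10, a starter enzyme of mucin-type glycosylation, and 0.82 at Dqx1. The Map3k9, Mlh3, Ptger2, Ehhadh, Meis2, Arsj, Tex26 and Dynlt3 peaks lay at starts and the Galnt10 peak at a finish, while the strand of the others was not known. None was called the opposite way, higher with #2 and lower with #4. Shares of opposite calls over all peaks are not given here.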

How the results depend on the processing

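Between the hairpins, the shares of weak peaks called were within 1.5 times of the main values under the other pseudocount, filter, scalings, voom weights and limits, apart from 1.30% in place of 2.60% of CpG-rich peaks lower with voom weights. The median log2 difference fell to 0.00015 with quantile scaling. Leaving out each library gave 5.75% to 7.15% higher and 2.48% to 4.00% lower, with a median of 0.01 to 0.06. It gave 8.99% to 11.6% and 2.20% to 4.22% at starts, 3.27% to 4.24% and 2.42% to 4.24% at finishes, 20.8% to 26.0% and 0% to 3.90% with a CpG-rich promoter, and 7.59% to 11% and 2.53% to 4.22% with another promoter.

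Against NTC the description moved more. With equal totals the median was -0.17 (#2), -0.095 (#4) and -0.13 (both), 8.68% were lower with #4, and 4.11% higher and 16.1% lower with both. With quantile scaling the medians turned to 0.0035, 0.018 and 0.018, and 8.51% (#2) and 6.31% (both) were lower. With an NTC limit of 100, 8.31% (#2), 2.61% (#4) and 4.97% (both) were lower and the #4 median turned to 0.014, and with the mean of 9 libraries under 150 it was -0.053. When 2 NTC libraries chose the peaks and the comparison used NTC replicate 1, 2 or 3 alone, 3.02%, 3.51% and 4.04% were higher with #2, 1.20%, 2.27% and 2.63% with #4 and 1.25%, 2.43% and 2.91% with both. Lower were 2.51%, 4.02% and 5.55%, then 0.228%, 0.849% and 1.91%, then 0.342%, 1.42% and 3.25%. Over all peaks, 12.9%, 16.2% and 17.5% were higher with #2 in this setting and 4.24%, 7.98% and 10.3% lower. With #4, 6.32%, 9.91% and 11.3% of all peaks were higher and 1.30%, 3.56% and 5.33% lower. With both, 9.21%, 13.2% and 14.8% of all peaks were higher and 1.99%, 5.41% and 7.75% lower. This setting changed both how the peaks were chosen and the number of control libraries, which cannot be told apart. The causes were not tested. Leaving out each library gave 5.24% to 7.72% higher and 8.85% to 13.7% lower with #2, 3.94% to 6.20% and 2.59% to 5.75% with #4, and 4.51% to 7.10% and 4.56% to 9.86% with both, with medians of -0.11 to -0.04, -0.05 to -0.0021 and -0.06 to -0.03.

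With the replicate number as a block, 6.87% (122) were higher and 3.72% (66) lower with #4 than with #2. The libraries share only a number: deviations of same-numbered libraries correlated at -0.084 to 0.033, and of others at -0.036 to 0.076. Of 55 gene results named, 52 kept their call with the block. Foxq1, Krt27 and Vmn2r111 did not. Weak peaks held a median of 61 to 91 reads per library.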
